A study of Homo sapiens with 12 samples.

Results

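A set of 37 genes of cholesterol and fatty acid synthesis were followed in BT474, an established hormone receptor-positive breast cancer line with amplified HER2. They were chosen by name as genes that the sterol regulatory element-binding proteins (SREBPs) are known to drive, that make or carry sterols and fatty acids, or that regulate the SREBPs themselves. The rule uses no measured value, but the genes were picked with earlier results of these data known. All 37 were among the 27814 named genes of the count table, and all 37 were among the 16208 genes that passed the filter on low counts. Messenger RNA was sequenced from 4 groups of 3 libraries each. Parental cells and cells labelled as BRD8 knockout (KO) were each sampled in the solvent DMSO and after 200 nM neratinib for 4 h. BRD8 is a bromodomain protein of a histone-acetylating complex, and neratinib irreversibly inhibits the kinases of the HER family. Whether the KO cells grew from 1 clone or from many, and which part of BRD8 was edited, is not in the labels. The replicates are not stated to be separate cultures, and the spread that p-values measure may therefore be technical.

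SREBPs are made as membrane proteins of the endoplasmic reticulum, where SCAP escorts them to the Golgi for cleavage when sterols are low and INSIG proteins hold them back when sterols are high. The released factor encoded by SREBF2 is known mainly for genes of cholesterol synthesis and uptake, and that encoded by SREBF1 mainly for genes of fatty acid synthesis. Oxysterols, in turn, activate the LXR receptors, which raise sterol efflux pumps such as ABCA1 and ABCG1. HER2-amplified breast cancer cells are known for high expression of fatty acid synthase.

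The libraries held 32471198 to 44726160 counts on named genes, and replicates differed by more than sampling noise, with a chi-square per degree of freedom from 1.37 to 3.47. Levels below are TMM-scaled CPM, that is counts relative to a library size adjusted by the trimmed mean of M values. In bulk libraries, fewer cells that express a gene and less RNA per cell cannot be told apart. The targeted gene was not lower in the KO-labelled cells in DMSO: BRD8 stood 0.07 (log2, SE 0.027) above parental cells in DMSO and 0.59 below them in neratinib (log2 -0.59, SE 0.021). The genotype is therefore given as labelled throughout. Of 6 luminal epithelial markers, ERBB2, which is amplified in this line, was highest, at 8107 to 9172 CPM over the libraries. KRT8 was at 1425 to 3934, KRT18 at 625 to 1161, GATA3 at 169 to 455 and EPCAM at 122 to 230 CPM. ESR1 was lowest, at 28.5 to 60.4 CPM. The 3 blood markers summed to at most 0.378 CPM. The 5 basal or fibroblast markers summed to 91.7 to 97.3 CPM in parental and 115 to 121 CPM in KO-labelled libraries in DMSO, and to 134 to 137 CPM and 183 to 187 CPM in neratinib. Nearly all of this was VIM, at 21.4 to 73.2 CPM, and COL1A1, at 69.7 to 116 CPM, while COL1A2 and PDGFRB were at or near 0. The 4 adipocyte markers summed to at most 4.17 CPM, mostly PLIN1, with ADIPOQ, FABP4 and LEP at or near 0. The part of these markers in the results was not tested.

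Promoter sequence of the kind these factors read was taken from RefSeq (GRCh38.p14), which gave 42 promoters for 31 of the 37 members, some of them overlapping promoters of 1 gene. ACAT2, FDFT1, SQLE, ABCG1, SOAT2 and FASN had no entry. In the 250 bases before each start, on both strands, 3 motifs were searched: TCACNCCAC, the core of a sterol regulatory element, CACGTG, an E-box, and CCAAT, the NF-Y box that often lies beside sterol regulatory elements. TCACNCCAC was found in 1 member promoter (2.38%, against 0.817% of 17744 promoters of genes tested), that of SREBF2. CACGTG was found in 6 (14.3%, against 8.03%), and CCAAT in 26 (61.9%, against 32.8%). CCAAT was present in 15 of 20 promoters of cholesterol synthesis members (75.0%) and in 8 of 16 of fatty acid members (50.0%). These matches describe the letters in the window and not bound sites.

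Stretches of 80 bases are shown for 6 members whose values carry the results below, each the window of that gene's promoter with the most matches, 5′ to 3′ on the gene's strand. They are the promoter of SREBF2, which encodes a factor of the pathway (chr22:41832972-41833051, plus strand), those of HMGCS1 (chr5:43313488-43313567, minus strand), MSMO1 (chr4:165327589-165327668, plus strand) and STARD4 (chr5:111512617-111512696, minus strand), whose neratinib responses were more positive in KO-labelled than in parental cells, and those of SC5D (chr11:121292640-121292719, plus strand) and INSIG1 (chr7:155297798-155297877, plus strand), whose responses were less positive. The 6 were picked, so motif and response cannot be compared across them. MVK, TM7SF2 and LSS, not shown, also had less positive responses, and their promoters held CCAAT and no CACGTG. INSIG1 and MSMO1 have further CCAAT matches outside their stretches, at 170 bases before the start in INSIG1 and at 139 and 185 in MSMO1. Capitals mark TCACNCCAC (in SREBF2 only), CACGTG, and CCAAT or its reverse complement ATTGG.
SREBF2: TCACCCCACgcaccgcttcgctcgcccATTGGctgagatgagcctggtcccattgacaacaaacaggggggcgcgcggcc
HMGCS1: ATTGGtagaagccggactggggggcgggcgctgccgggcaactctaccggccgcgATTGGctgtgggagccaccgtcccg
MSMO1: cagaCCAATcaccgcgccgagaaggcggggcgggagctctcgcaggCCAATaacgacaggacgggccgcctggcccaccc
STARD4: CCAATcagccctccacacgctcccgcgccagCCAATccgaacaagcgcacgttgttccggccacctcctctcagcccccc
SC5D: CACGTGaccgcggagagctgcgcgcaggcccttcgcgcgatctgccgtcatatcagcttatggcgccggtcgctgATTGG
INSIG1: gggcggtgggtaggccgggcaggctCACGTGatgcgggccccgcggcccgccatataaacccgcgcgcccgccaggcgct

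Per kilobase of the longest protein-coding transcript, the most abundant members in parental DMSO cells were genes of fatty acid synthesis and desaturation. FADS2, a desaturase of polyunsaturated fatty acids, stood at 428 CPM per kb, SCD, which makes oleate from stearate, at 340 and FASN at 246. TM7SF2, a sterol C14 reductase, followed at 179 and HMGCS1, the synthase before the rate-limiting step of the mevalonate pathway, at 138. The other members lay between these and the 3 lowest, which were ACACB at 0.311, SOAT2 at 0.136 and ABCA1 at 0.0314 CPM per kb. The 37 genes together took 10520 ± 66.9 CPM in parental DMSO, 11041 ± 67.1 in KO-labelled DMSO, 8950 ± 42.9 in parental neratinib and 10748 ± 48.2 CPM in KO-labelled neratinib libraries (mean ± SD, n = 3). The sum was thus lowest in neratinib-treated parental cells, and FASN, SCD and FADS2 were its largest terms there, at means of 1720, 1447 and 1109 CPM.

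**Figure D1:**
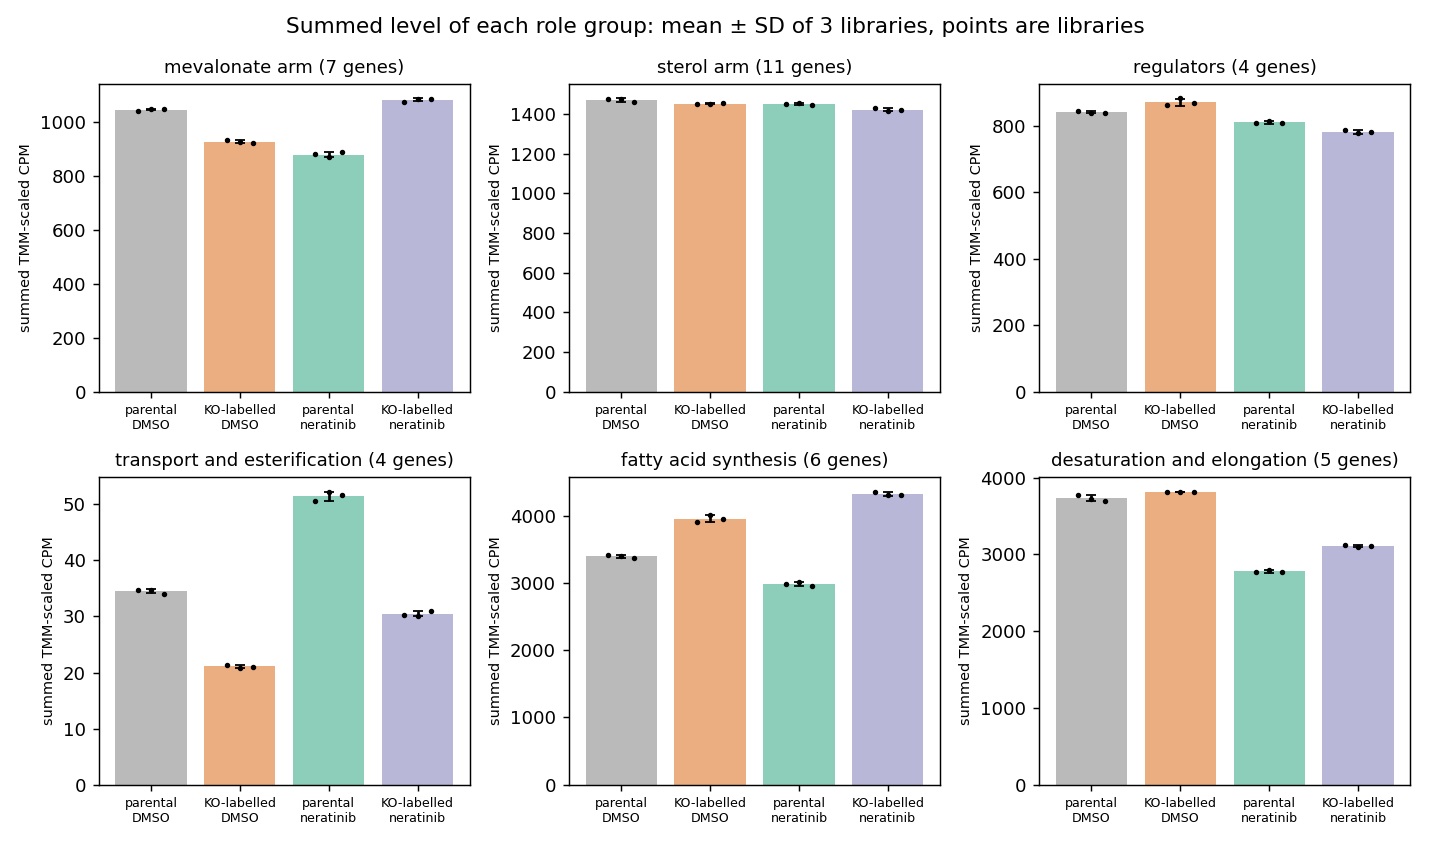
Summed TMM-scaled CPM of each role group (y axis, linear from 0) in the 4 groups of libraries (x axis). Bars are means, error bars SD and points the 3 libraries; fatty acid synthesis was highest in KO-labelled neratinib libraries (4323 CPM) and transport and esterification genes in parental neratinib libraries (51.4 CPM).

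A member was called where edgeR's quasi-likelihood test gave a Benjamini-Hochberg adjusted p below 0.05 over all genes tested. Because replicates were close together (biological coefficient of variation 1.86%), most genes were called in most comparisons, and counts at a fold of at least 1.5 are given beside them. In DMSO, 10 members were called higher in KO-labelled than in parental cells and 19 lower, where 36% and 35.6% of all genes were called higher and lower. At 1.5-fold or more, 5 were higher and 4 lower, against 14.3% and 8.81% of all genes. Without the KO-labelled DMSO library of replicate 3 the 5 became 3, since HSD17B7 and ACACB then stood just under the threshold. In neratinib, 13 members were called higher and 19 lower in KO-labelled cells (34.7% and 36.9% of all genes), and 4 and 2 at 1.5-fold or more (13.9% and 9.06%).

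At any size, neratinib lowered more members than it raised in both kinds of cell. In parental cells 11 were called higher and 23 lower (41.8% and 38.9% of all genes), with 3 and 6 at 1.5-fold or more (22.5% and 17.3%). In KO-labelled cells 14 were called higher and 20 lower (38.9% and 38.4% of all genes), with 6 and 4 at 1.5-fold or more (18.9% and 14.2%). The comparisons with neratinib in parental cells and between genotypes in DMSO share the parental DMSO libraries. The median change of the members with neratinib was -0.19 (log2) in parental and -0.18 in KO-labelled cells, beside 0.04 and 0.02 over all genes. Between genotypes the median was -0.05 in DMSO and -0.08 in neratinib, beside 0.00 and -0.02 over all genes. With a coefficient of variation of 0.1 set for every gene, the members called in DMSO between genotypes went from 10 higher and 19 lower to 6 and 9, and no change below 0.27 (log2) was kept.

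**Figure D2:**
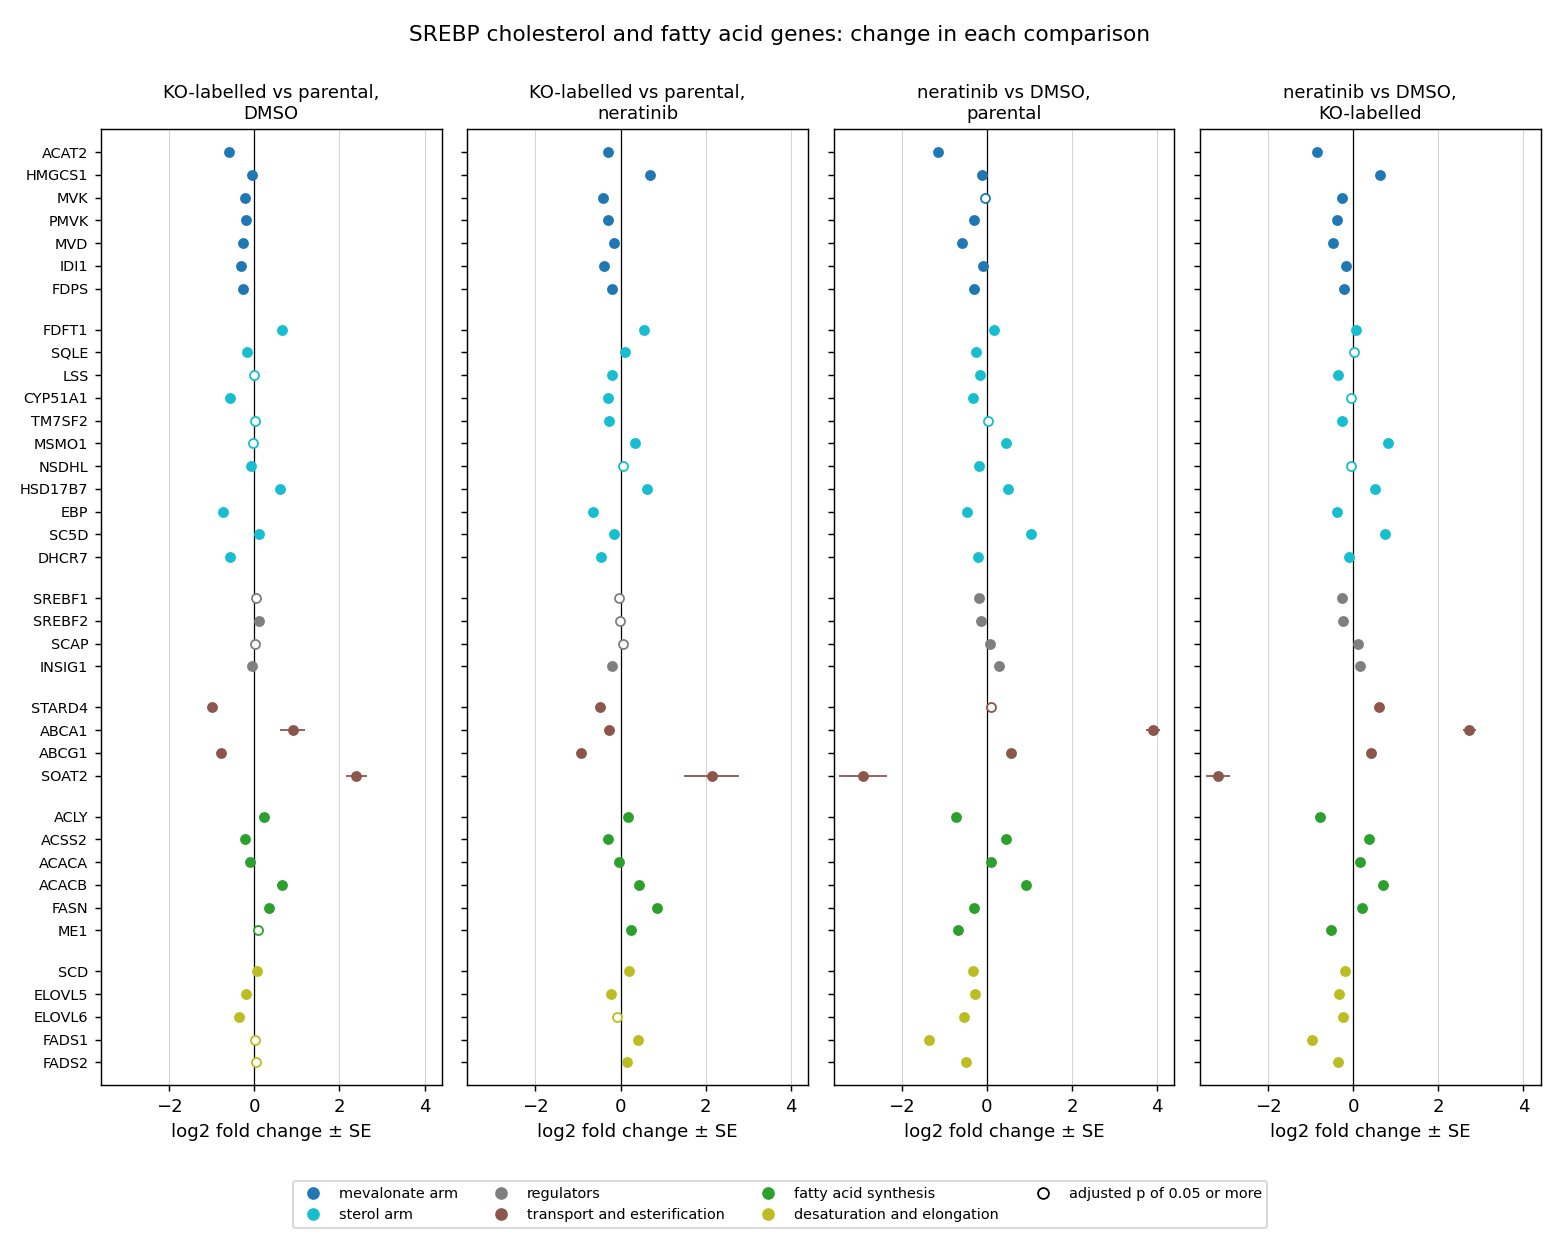
Log2 fold change ± SE of each of the 37 members (rows, grouped and coloured by role) in the 4 pairwise comparisons (panels). Filled points were called by edgeR and open points were not. The 7 members of the mevalonate arm lie left of 0 in DMSO between genotypes. All 5 members of desaturation and elongation lie left of 0 with neratinib.

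The regulators themselves changed by no more than 0.29 on the log2 scale in any comparison. SREBF1 stood at 280, 279 and 276 CPM in the 3 parental DMSO libraries and at 281, 291 and 283 in KO-labelled DMSO, a difference that was not called (log2 0.03, SE 0.019, edgeR adjusted p = 0.114). With neratinib it was at 245, 245 and 243 CPM in parental and at 244, 235 and 235 CPM in KO-labelled cells. Every neratinib library lay below every DMSO library, and SREBF1 fell by 0.19 in parental and by 0.26 in KO-labelled cells on the log2 scale. SREBF2 stood at 367, 361 and 362 CPM in parental DMSO, 386, 397 and 393 in KO-labelled DMSO, 333, 335 and 327 in parental neratinib and 330, 326 and 332 CPM in KO-labelled neratinib libraries. It was thus slightly higher in KO-labelled cells in DMSO (log2 0.11, SE 0.018, edgeR adjusted p = 1.3e-06), and the genotypes overlapped in neratinib.

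SCAP, the escort protein, was at 55.0, 54.2 and 54.9 CPM in parental DMSO, 54.5, 57.8 and 54.0 in KO-labelled DMSO, 58.0, 58.9 and 57.1 in parental neratinib and 62.5, 58.4 and 59.4 CPM in KO-labelled neratinib libraries. The genotypes overlapped in both treatments. Its rise with neratinib in parental cells (log2 0.08) was lost in DESeq2 (adjusted p = 0.128), with RLE size factors (adjusted p = 0.0750) and with no filter (adjusted p = 0.153), and also when parental DMSO replicate 2 or 3 or parental neratinib replicate 1 or 2 was left out (adjusted p = 0.0542 to 0.0744). INSIG1, the sterol-sensing retention protein, which is itself a classic SREBP target, was at 143, 145 and 145 CPM in parental DMSO and at 140, 137 and 138 in KO-labelled DMSO. With neratinib it was at 173, 176 and 180 CPM in parental and 152, 158 and 154 CPM in KO-labelled cells. All neratinib libraries were above all DMSO libraries, by 0.29 (log2, SE 0.021) in parental and 0.16 (SE 0.022) in KO-labelled cells. INSIG1 therefore rose with neratinib while SREBF1 and SREBF2 fell.

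The mevalonate arm leads from acetyl-CoA to farnesyl diphosphate. All 7 members placed in it were called lower in KO-labelled cells in DMSO, and only these members are described here. Of all genes, 35.6% were called lower there. The 7 had a median of -0.27 (log2) and a range from -0.60 to -0.05. With a coefficient of variation of 0.1, only ACAT2, IDI1 and FDPS kept this call. In neratinib 6 were lower and HMGCS1 was higher (36.9% and 34.7% of all genes). HMGCS1 (chromosome 5, 43289395 to 43313512, minus strand, GENCODE 29 on GRCh38, as for the positions below) was at 485, 483 and 487 CPM in parental DMSO, 472, 463 and 469 in KO-labelled DMSO, 449, 439 and 458 in parental neratinib and 709, 727 and 730 CPM in KO-labelled neratinib libraries. The first 3 groups lay between 439 and 487 CPM and the fourth lay far above them. With neratinib HMGCS1 fell by 0.11 in parental cells (SE 0.019, edgeR adjusted p = 1.08e-06), a call lost when libraries were scaled by their totals alone (adjusted p = 0.123), and rose by 0.63 in KO-labelled cells (SE 0.019, edgeR adjusted p = 1.76e-30). Its small difference in DMSO (-0.05) was lost without KO-labelled DMSO replicate 2 (adjusted p = 0.0602) and with library totals alone (adjusted p = 0.0651).

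ACAT2, the thiolase that condenses acetyl-CoA at the start of the arm, was lowest in the group where HMGCS1 was highest. It was at 49.8, 53.3 and 54.2 CPM in parental DMSO, 36.0, 34.3 and 33.5 in KO-labelled DMSO, 24.3, 21.6 and 24.3 in parental neratinib and 18.5, 19.2 and 19.6 CPM in KO-labelled neratinib libraries. No groups overlapped, and ACAT2 fell 2.23-fold with neratinib in parental cells (log2 -1.16, SE 0.041) and 1.81-fold in KO-labelled cells (log2 -0.85, SE 0.046). Its value is uncertain, because 52.3% of its exonic bases are shared with genes on the other strand, SOD2 and TCP1 among them, and the library kit does not mark strand. SOD2 was at -0.45 and -0.49 and TCP1 at -0.62 and -0.46 (log2) in the same neratinib comparisons.

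The 5 later members of the arm were called lower in KO-labelled cells in both treatments (35.6% of all genes in DMSO, 36.9% in neratinib). Their log2 differences ran from -0.42 to -0.15. MVK, mevalonate kinase, was at 55.8, 57.3 and 57.1 CPM in parental DMSO, 48.2, 47.8 and 51.4 in KO-labelled DMSO, 55.3, 55.3 and 54.4 in parental neratinib and 43.5, 40.9 and 39.1 CPM in KO-labelled neratinib libraries. Neratinib lowered it in KO-labelled cells (log2 -0.25, SE 0.035), while the change in parental cells was not called (-0.04, edgeR adjusted p = 0.204). MVD, the decarboxylase that makes isopentenyl diphosphate, went from a mean of 157 to 104 CPM with neratinib in parental cells (log2 -0.60) and from 130 to 94.1 CPM in KO-labelled cells (-0.47). PMVK, phosphomevalonate kinase, and FDPS, farnesyl diphosphate synthase, were lower by 0.20 and 0.27 in KO-labelled cells in DMSO, and both fell with neratinib in both kinds of cell, by 0.22 to 0.39. For FDPS, 30.0% of the 50-base windows of its transcript also occur in other genes, pseudogenes among them. IDI1, the isomerase, was lower in KO-labelled cells by 0.31 in DMSO and 0.40 in neratinib. Its fall of 0.09 with neratinib in parental cells was lost with library totals alone (-0.01, adjusted p = 0.776) and without parental neratinib replicate 2 (adjusted p = 0.0961).

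The sterol arm, from squalene synthase to the last reductases, was mixed. Of its 11 members, 3 were called higher and 5 lower in KO-labelled cells in DMSO (36% and 35.6% of all genes). In neratinib 4 were higher and 6 lower (34.7% and 36.9% of all genes). The summed level of these members changed little, from 1469 ± 9.02 CPM in parental DMSO to 1422 ± 8.17 CPM in KO-labelled neratinib libraries (mean ± SD, n = 3). FDFT1, squalene synthase, was at 214, 213 and 211 CPM in parental and 332, 335 and 341 CPM in KO-labelled DMSO libraries, and neratinib left it at 240, 240 and 235 CPM and at 353, 346 and 353 CPM. The genotypes were far apart in both treatments (log2 0.66, SE 0.019, and 0.56, SE 0.019), and neratinib moved FDFT1 by only 0.16 and 0.06, the second of which was lost without the filter on low counts (adjusted p = 0.380). HSD17B7, a sterol 3-keto reductase, was at 15.6, 14.9 and 16.4 CPM in parental DMSO, 23.1, 23.8 and 24.9 in KO-labelled DMSO, 22.2, 21.3 and 22.6 in parental neratinib and 32.98, 34.9 and 33.9 CPM in KO-labelled neratinib libraries. The label and the drug each went with a rise, of 0.61 and 0.62 between genotypes and of 0.50 and 0.51 with neratinib, and the interaction was not called (0.01, SE 0.064, edgeR adjusted p = 0.907). Its reads are uncertain too, since 51.1% of its 50-base windows occur in other genes. The near copy HSD17B7P2 showed 0.48, 0.50, 0.51 and 0.52 in the same 4 comparisons.

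EBP, the sterol isomerase, had the largest fall between genotypes among the sterol genes in both treatments. It was followed in neratinib by DHCR7, which reduces 7-dehydrocholesterol to cholesterol. EBP was at 89.1, 91.5 and 88.1 CPM in parental DMSO, 55.1, 52.8 and 54.8 in KO-labelled DMSO, 66.1, 64.3 and 64.6 in parental neratinib and 42.6, 40.9 and 41.5 CPM in KO-labelled neratinib libraries. It fell with the label (log2 -0.73, SE 0.028, in DMSO) and with the drug (-0.46, SE 0.028, in parental cells), and the 4 groups did not overlap. DHCR7 was at 224, 229 and 225 CPM in parental and 153, 153 and 152 CPM in KO-labelled DMSO libraries, and at 196, 200 and 195 CPM and 144, 142 and 145 CPM in neratinib. Its difference between genotypes (-0.56 and -0.45) exceeded its change with neratinib (-0.20 and -0.09), which was not called with library totals alone in KO-labelled cells (adjusted p = 0.152).

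Among the sterol genes, SC5D rose most with neratinib in parental cells and MSMO1 in KO-labelled cells. SC5D, the sterol C5 desaturase, was at 42.9, 42.7 and 44.0 CPM in parental DMSO and 87.7, 87.0 and 89.7 CPM after neratinib, and at 47.5, 45.5 and 46.8 CPM and 79.4, 78.8 and 77.5 CPM in KO-labelled cells. The rise was 2.04-fold in parental (log2 1.03, SE 0.029, edgeR adjusted p = 9.28e-32) and 1.69-fold in KO-labelled cells (log2 0.76, SE 0.029). MSMO1, the methylsterol monooxygenase, was at 59.9, 59.6 and 62.4 CPM in parental DMSO and 60.8, 58.6 and 59.1 CPM in KO-labelled DMSO, which overlap. After neratinib it was at 83.3, 82.0 and 81.6 CPM in parental and 105, 108 and 102 CPM in KO-labelled cells, a rise of 1.36-fold and 1.76-fold. SC5D thus rose more in parental and MSMO1 more in KO-labelled cells.

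The remaining sterol genes moved by less than 0.6 on the log2 scale. CYP51A1, the lanosterol demethylase, was lower in KO-labelled cells by 0.57 in DMSO and 0.30 in neratinib, but 83.2% of its exonic bases are shared with overlapping annotations, so its counts may hold other transcripts. LSS, which cyclises squalene epoxide to lanosterol, overlapped between genotypes in DMSO and was lower by 0.21 in KO-labelled cells in neratinib. TM7SF2 likewise overlapped in DMSO. It was at 307, 312 and 307 CPM in parental DMSO, 315, 318 and 311 in KO-labelled DMSO, 311, 314 and 317 in parental neratinib and 262, 263 and 258 CPM in KO-labelled neratinib libraries, which were the only group below the others. SQLE, squalene epoxidase, differed in opposite directions between genotypes, by -0.17 in DMSO and 0.11 in neratinib. NSDHL, a sterol 4-decarboxylase, overlapped between genotypes in both treatments, and its call in DMSO (-0.08, edgeR adjusted p = 0.0353) was lost when replicate 1 or 2 of either DMSO group was left out (adjusted p = 0.0671 to 0.102).

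**Figure D3:**
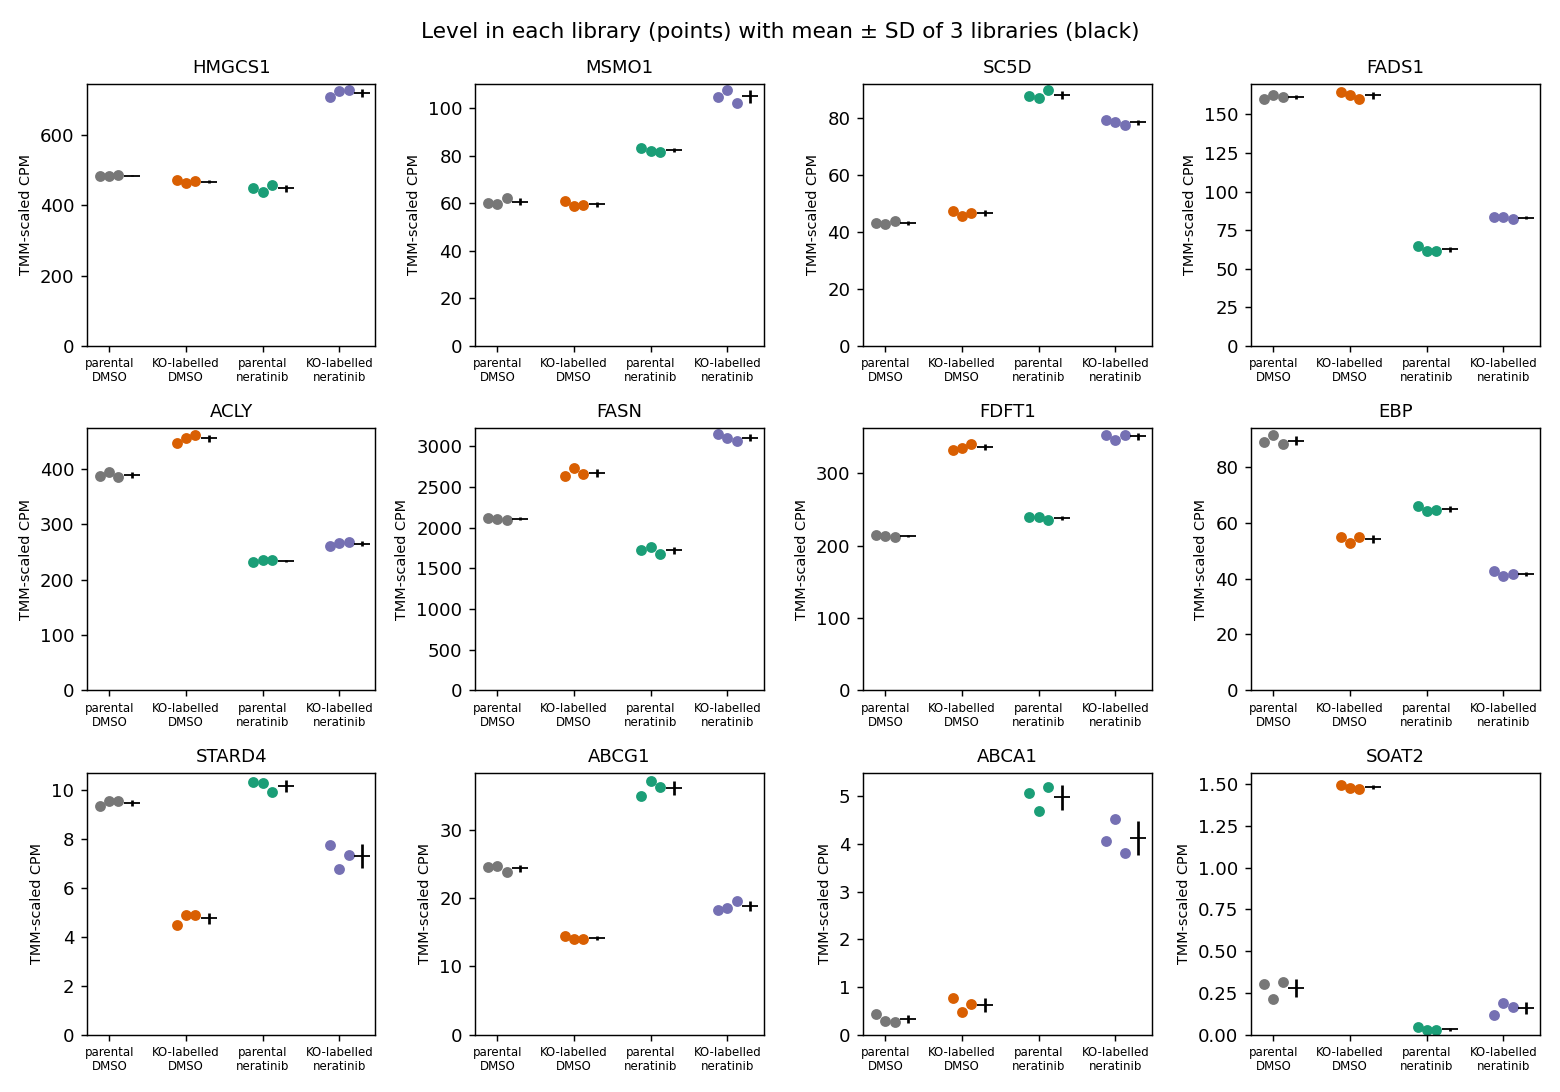
TMM-scaled CPM (y axis, linear from 0) of 12 members in each library (points) of the 4 groups (x axis), with mean ± SD of 3 libraries in black. HMGCS1 stands apart only in KO-labelled neratinib libraries (709 to 730 CPM), while FADS1 and ACLY are low in both neratinib groups and FDFT1 is high in both KO-labelled groups.

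Genes of sterol transport and esterification held the largest relative changes of the set and some of its lowest levels. STARD4 (chromosome 5, 111496033 to 111512590, minus strand), which carries cholesterol between membranes, was at 9.36, 9.55 and 9.58 CPM in parental DMSO, 4.49, 4.89 and 4.91 in KO-labelled DMSO, 10.4, 10.3 and 9.92 in parental neratinib and 7.78, 6.78 and 7.37 CPM in KO-labelled neratinib libraries. It was 1.996-fold lower in KO-labelled cells in DMSO (log2 -0.997, SE 0.075, edgeR adjusted p = 9.76e-16) and 1.40-fold lower in neratinib (-0.49, SE 0.068). Neratinib raised it in KO-labelled cells (0.61, SE 0.080), while the change in parental cells was not called (0.10, SE 0.064, edgeR adjusted p = 0.137), although it was with library totals alone (0.18, adjusted p = 0.00958). ABCG1, which passes cholesterol to lipoprotein particles, was at 24.6, 24.7 and 23.9 CPM in parental DMSO, 14.5, 14.1 and 14.0 in KO-labelled DMSO, 35.0, 37.1 and 36.4 in parental neratinib and 18.3, 18.6 and 19.7 CPM in KO-labelled neratinib libraries. It was lower with the label in both treatments (-0.78 and -0.94) and higher with the drug in both kinds of cell (0.57 and 0.41), with no overlap.

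ABCA1 (chromosome 9, 104781002 to 104928237, minus strand), the pump that loads cholesterol onto apolipoproteins, rose most of all members with neratinib, from a low level. It was at 0.428, 0.295 and 0.264 CPM in parental DMSO, 0.760, 0.477 and 0.644 in KO-labelled DMSO, 5.06, 4.68 and 5.19 in parental neratinib and 4.05, 4.51 and 3.80 CPM in KO-labelled neratinib libraries. Over the 3 libraries of a group, 38 counts in parental DMSO stood against 587 in parental neratinib, a ratio of 15.1 with an exact 95% counting interval of 10.9 to 21.6, and 72 stood against 464 in KO-labelled cells, a ratio of 6.68 (5.20 to 8.69). Such intervals cover counting error only. The fitted rises were 3.90 (log2, SE 0.175) and 2.73 (SE 0.160). Between genotypes ABCA1 was higher in KO-labelled cells in DMSO (0.90, SE 0.287, edgeR adjusted p = 0.00498) and lower in neratinib (-0.27, SE 0.101, edgeR adjusted p = 0.0162), the latter lost in DESeq2 (adjusted p = 0.0903) and without parental neratinib replicate 1 or 3 or KO-labelled neratinib replicate 3 (adjusted p = 0.0551 to 0.0831). SOAT2, a sterol acyltransferase, was also scarce, at 0.302, 0.215 and 0.317 CPM in parental DMSO and 1.495, 1.48 and 1.47 CPM in KO-labelled DMSO. That is 32 against 172 counts, a ratio of 5.32 (3.63 to 8.02). After neratinib SOAT2 had 4 counts over the parental and 18 over the KO-labelled libraries. It fell 8.18-fold (2.90 to 31.8) and 9.21-fold (5.66 to 15.9) by counts, with fitted changes of -2.92 (log2, SE 0.567) and -3.18 (SE 0.278). SOAT2 reached the filter on low counts only with the KO-labelled DMSO libraries, its highest group. Its differences from that group are therefore a description, although SOAT2 counts among the members at 1.5-fold or more in each pairwise comparison.

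Fatty acid synthesis genes did not move as a block. FASN (chromosome 17, 82078333 to 82098332, minus strand), which builds palmitate, was at 2124, 2110 and 2089 CPM in parental DMSO, 2629, 2729 and 2663 in KO-labelled DMSO, 1726, 1759 and 1676 in parental neratinib and 3151, 3101 and 3067 CPM in KO-labelled neratinib libraries. With neratinib it fell by 0.29 in parental cells (SE 0.019, edgeR adjusted p = 4.1e-18) and rose by 0.22 in KO-labelled cells (SE 0.019, edgeR adjusted p = 8.66e-14). Between genotypes it was 1.27-fold higher in DMSO and 1.81-fold higher in neratinib. ACLY, which supplies cytosolic acetyl-CoA from citrate, was at 388, 395 and 385 CPM in parental DMSO, 448, 457 and 462 in KO-labelled DMSO, 232, 235 and 236 in parental neratinib and 261, 267 and 269 CPM in KO-labelled neratinib libraries. Neratinib lowered it alike in both, 1.66-fold (log2 -0.73, SE 0.019) and 1.72-fold (-0.78, SE 0.019), and the interaction was not called (-0.05, edgeR adjusted p = 0.162), although it was with library totals alone (-0.07, adjusted p = 0.0316).

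ACSS2, which makes acetyl-CoA from acetate, rose where ACLY fell, from a mean of 221 to 302 CPM with neratinib in parental cells (log2 0.45, SE 0.020) and from 192 to 246 CPM in KO-labelled cells (0.36, SE 0.020). ME1, malic enzyme, which supplies NADPH, was at 9.06, 8.80 and 9.34 CPM in parental DMSO, 9.76, 9.80 and 9.20 in KO-labelled DMSO, 5.74, 5.68 and 5.43 in parental neratinib and 6.60, 6.95 and 6.51 CPM in KO-labelled neratinib libraries, so that all neratinib libraries lay below all DMSO libraries. ACACB, the acetyl-CoA carboxylase of the mitochondrial surface, was scarce, at 2.89, 3.03 and 2.80 CPM in parental DMSO, 3.95, 4.71 and 5.09 in KO-labelled DMSO, 5.78, 4.89 and 5.69 in parental neratinib and 6.95, 7.87 and 7.43 CPM in KO-labelled neratinib libraries. It rose 1.89-fold with neratinib in parental cells (log2 0.92, SE 0.104) and 1.63-fold in KO-labelled cells (0.71, SE 0.089). ACACA, the cytosolic carboxylase that commits carbon to fatty acids, ran from a mean of 620 to 714 CPM over the groups, and its difference between genotypes in neratinib (-0.05) was lost with RLE size factors (adjusted p = 0.0530) and without parental DMSO replicate 3, KO-labelled DMSO replicate 1, parental neratinib replicate 3 or KO-labelled neratinib replicate 1 or 2 (adjusted p = 0.0519 to 0.222).

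All 5 genes of desaturation and elongation were called lower with neratinib in both kinds of cell (38.9% of all genes in parental, 38.4% in KO-labelled cells). Their medians were -0.49 (log2) in parental and -0.32 in KO-labelled cells, and only FADS1 fell by 1.5-fold or more. FADS1 (chromosome 11, 61799625 to 61829318, minus strand), the delta-5 desaturase, fell most. It was at 160, 163 and 161 CPM in parental DMSO, 165, 163 and 160 in KO-labelled DMSO, 64.5, 61.7 and 61.6 in parental neratinib and 83.6, 83.7 and 82.1 CPM in KO-labelled neratinib libraries. The genotypes overlapped in DMSO and were apart in neratinib, after falls of 2.57-fold (log2 -1.36, SE 0.024, edgeR adjusted p = 2.28e-39) and 1.95-fold (-0.97, SE 0.023, edgeR adjusted p = 3.85e-34). Of the exonic bases of FADS1, 5.57% are shared with its neighbour FADS2 on the other strand and with MIR1908. The more abundant FADS2 went from a mean of 1554 to 1109 CPM in parental and from 1592 to 1237 CPM in KO-labelled cells. SCD fell by 0.33 in parental cells, to a mean of 1447 CPM, and by 0.20 in KO-labelled cells, to 1650 CPM. Its small difference between genotypes in DMSO (0.05) was lost with RLE size factors (adjusted p = 0.0617) and without parental DMSO replicate 2 or 3, KO-labelled DMSO replicate 1 or parental neratinib replicate 1 (adjusted p = 0.0504 to 0.159). The elongases ELOVL5 and ELOVL6 fell by 0.28 and 0.54 in parental cells and by 0.32 and 0.25 in KO-labelled cells.

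The neratinib response differed between genotypes for 26 of the 37 members by edgeR's interaction test, 15 with a more positive response in KO-labelled cells (21.5% of all genes) and 11 with a less positive response (24.6%). At 1.5-fold or more, HMGCS1 was the only member with a more positive response (4.3% of all genes) and ABCA1 the only member with a less positive response (5.13%). With a coefficient of variation of 0.1 the interaction kept 2 and 1 members, namely HMGCS1, FASN and ABCA1. The interaction was 0.74 for HMGCS1 (log2, SE 0.027, edgeR adjusted p = 9.35e-26), 0.51 for FASN (SE 0.027, edgeR adjusted p = 7.17e-20), 0.51 for STARD4 (SE 0.103, edgeR adjusted p = 5.98e-05) and 0.40 for FADS1 (SE 0.034, edgeR adjusted p = 2.29e-13). Among members called with a less positive response, the most negative interactions were those of ABCA1 (-1.17, SE 0.304, edgeR adjusted p = 0.00139), TM7SF2 (-0.29, SE 0.026), SC5D (-0.27, SE 0.041) and MVK (-0.21, SE 0.048). Of the 5 desaturation and elongation genes, 4 had a positive interaction, so their fall was smaller in KO-labelled cells. SREBF1, SREBF2 and INSIG1 had negative interactions of 0.07 to 0.13 in size, that of SREBF1 lost in DESeq2 (adjusted p = 0.171) and in 7 of the 12 fits that left out a library (without parental DMSO replicate 3, KO-labelled DMSO replicate 1 or 2, parental neratinib replicate 1 or 3, or KO-labelled neratinib replicate 2 or 3, adjusted p = 0.0756 to 0.216).

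Across the members, the changes with neratinib in parental and in KO-labelled cells, which share no library, had a Pearson r of 0.946 and a Spearman rho of 0.847 over 37 genes, beside 0.857 and 0.856 over all 16208 genes. The direction was the same for 33 of 37 (89.2%, against 85.5% of all genes). Of the other 4, HMGCS1, FASN, SQLE and TM7SF2, the first pair were called in opposite directions. The difference between genotypes in DMSO and in neratinib, which also share no library, had an r of 0.836 and a rho of 0.758, with 28 of 37 in the same direction (75.7%, against 76.3%). The scarce ABCA1 and SOAT2 were the extremes of both neratinib comparisons, and SOAT2 was the highest member in both genotype comparisons. They weigh on r, which was not computed without them. Genes are not independent replicates, so these values describe the set only.

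**Figure D4:**
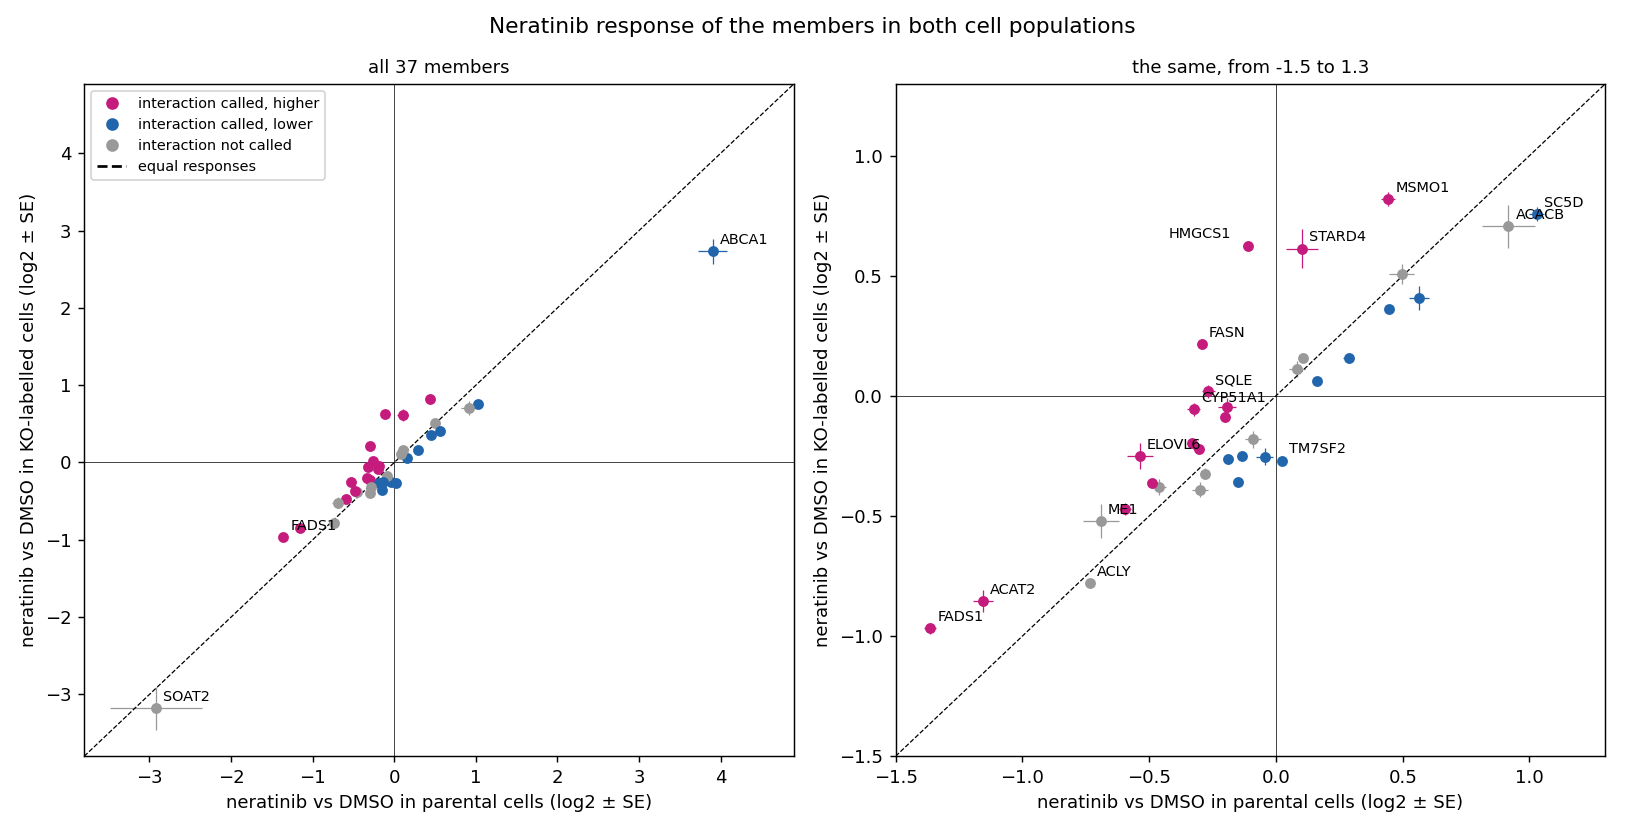
Change with neratinib (log2 ± SE) in parental cells (x axis) against that in KO-labelled cells (y axis) for the 37 members, over the whole range (left) and enlarged around 0 (right). Colours give the interaction call and the dashed line equal responses; HMGCS1 and FASN lie in the upper left, below 0 in parental and above 0 in KO-labelled cells.

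Other genes of the pathway were taken from 6 lists. Of 12 genes of SREBP processing and turnover, 5 were called higher and 4 lower with neratinib in parental cells (41.8% and 38.9% of all genes), with a median of -0.01 (log2) beside 0.04 over all genes. FBXW7, the ubiquitin ligase subunit that marks nuclear SREBPs for degradation, fell from 45.8 to 15.1 CPM (log2 -1.60, SE 0.041) and INSIG2 rose from 31.1 to 53.4 CPM (0.78, SE 0.033). FBXW7 was also lower in KO-labelled cells in DMSO, at 27.4 CPM (-0.74, SE 0.036), and its interaction was 0.89 (SE 0.061, edgeR adjusted p = 3.3e-16). Of 26 other lipid synthesis genes linked to SREBPs, 9 rose and 15 fell with neratinib in parental cells (median -0.20), where 41.8% of all genes rose and 38.9% fell. In KO-labelled cells 5 rose and 15 fell (median -0.23), beside 38.9% and 38.4% of all genes. The largest fall in parental cells was that of MID1IP1, a regulator of acetyl-CoA carboxylase (-0.91, SE 0.038), and the largest rise that of ACSL1, an acyl-CoA synthetase (0.69, SE 0.019). Between genotypes in DMSO, 12 of the 26 were called higher and 10 lower (36% and 35.6% of all genes), with TMEM97 lowest (-0.78) and AGPAT2, which makes phosphatidic acid, highest (0.93).

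The list of 10 LXR factors and targets includes the members ABCA1 and ABCG1 and shares LPCAT3 with the lipid synthesis list. Of these, 9 rose with neratinib in parental cells and 8 in KO-labelled cells (41.8% and 38.9% of all genes), with medians of 0.59 and 0.34. Between genotypes, 8 were called higher and 1 lower in KO-labelled cells in DMSO (36% and 35.6% of all genes). In neratinib 4 were higher and 4 lower (34.7% and 36.9%). By the interaction test, 1 had a more positive and 7 a less positive response in KO-labelled cells (21.5% and 24.6%). Among 11 genes of sterol transport and storage, 6 rose and 3 fell with neratinib in parental cells (41.8% and 38.9% of all genes), where GRAMD1C, a cholesterol transfer protein of membrane contact sites, rose from 3.80 to 48.7 CPM (log2 3.68, SE 0.057). In KO-labelled cells it rose from 5.14 to 38.7 CPM (2.90, SE 0.056). Among 11 lipid droplet and triglyceride genes, 5 were called higher and 5 lower in KO-labelled cells in DMSO (36% and 35.6% of all genes). PLIN2, which coats lipid droplets, was lowest, at 1.64 CPM against 8.93 CPM in parental cells (-2.45, SE 0.115). Of 13 fatty acid oxidation genes, 5 rose and 6 fell with neratinib in parental cells (41.8% and 38.9% of all genes). CPT1A, which admits fatty acids to mitochondria, fell from 293 to 137 CPM (-1.09, SE 0.020) and PPARGC1A rose from 6.75 to 13.9 CPM (1.03, SE 0.067).

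Differences between the genotypes were also set beside those of neighbouring genes, up to 25 tested protein-coding genes on each side of a member. FDFT1 lies on the short arm of chromosome 8, where its 49 neighbours had a median difference of 0.43 (log2) in DMSO and 0.50 in neratinib, against 0.66 and 0.56 for FDFT1, and 41 of the 49 were higher in KO-labelled cells in DMSO. The 31 neighbours of IDI1 on chromosome 10 had a median of -0.31 in DMSO, as had IDI1 itself. ACSS2 on chromosome 20 stood at -0.21 among 50 neighbours with a median of -0.35, of which 44 were lower. DHCR7 (-0.56) and HSD17B7 (0.61) had neighbours with medians of -0.26 and 0.28. The neighbours of STARD4 had a median of -0.14 in DMSO, with 32 of 50 lower, and those of EBP, ABCG1 and FASN had -0.06, 0.04 and -0.07. SQLE (-0.17), FADS1 (0.01) and FADS2 (0.03) stood apart from neighbours with medians of 0.24, -0.35 and -0.34 in DMSO. Over all genes the median was 0.00 in DMSO and -0.02 in neratinib. The part of the neighbourhood in these differences was not tested.

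**Figure D5:**
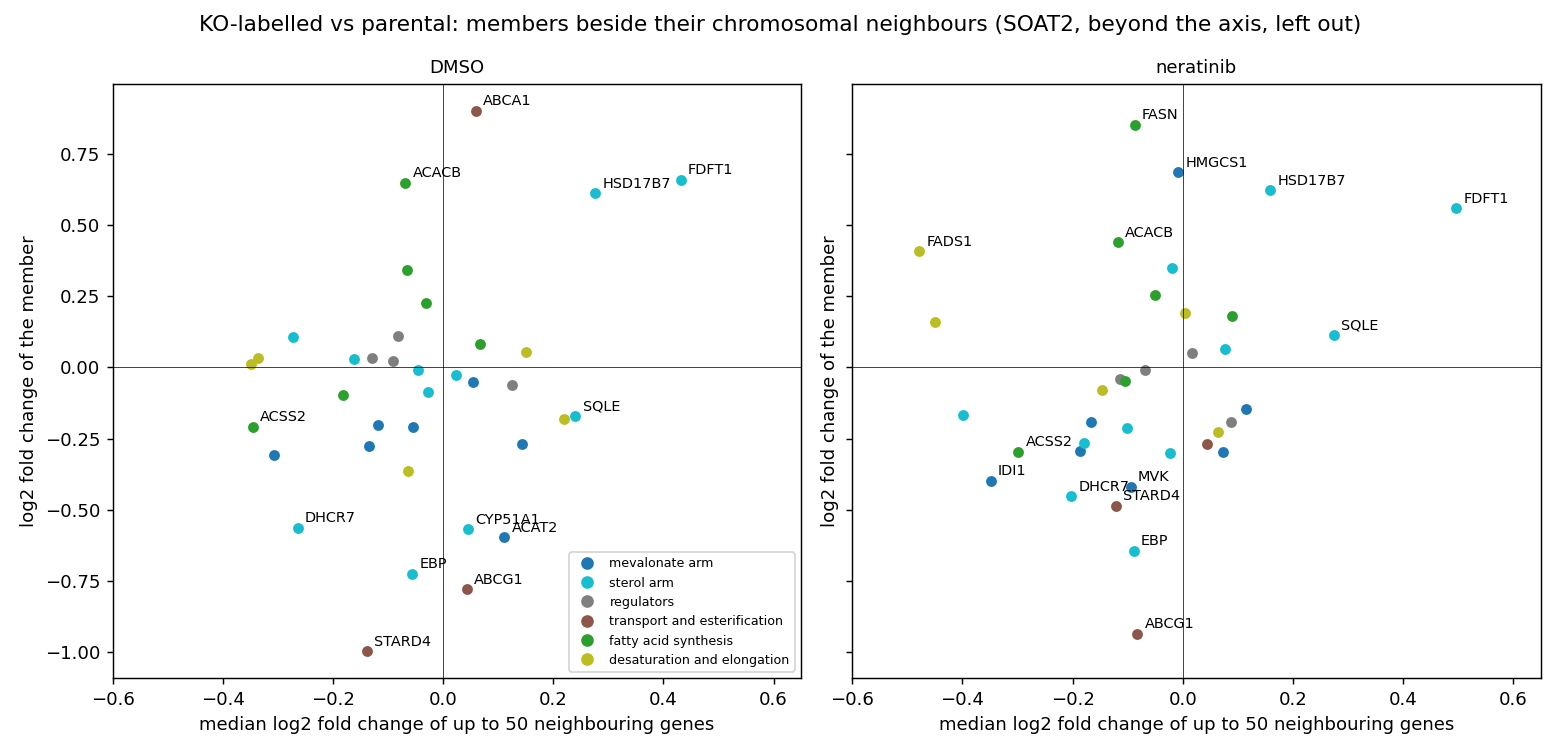
Difference between KO-labelled and parental cells of each member (y axis, log2) against the median difference of up to 50 neighbouring genes (x axis, log2), in DMSO (left) and neratinib (right), coloured by role; SOAT2 lies beyond the axis and is left out. FDFT1 has the highest neighbour median in DMSO (0.43), while EBP and ABCG1 differ with neighbour medians of -0.06 and 0.04 in DMSO.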

How the data were processed

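The authors deposited unnormalized whole-number counts of reads for each gene in 12 libraries. FastQC 0.11.7, STAR 2.7.9 and edgeR 3.40.2 are named with the GRCh38 genome per the submitters' processing notes; the counting program, annotation and strand setting are not given in the sources used here. Per the labels' protocols, libraries were made with an Illumina TruSeq v2 kit and sequenced as single reads of 50 bases. Of 28395 lines, 581 had no gene symbol (0.0877% to 0.124% of a library's counts) and were left out.

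Counts were filtered with filterByExpr, scaled by TMM and fitted with edgeR 4.0.16 (R 4.3.3) as 1 quasi-likelihood model of 4 group means with 8 residual degrees of freedom. Contrasts gave the comparisons, and Benjamini-Hochberg adjustment ran over all 16208 genes. The model was tested on simulated data. SE is an approximate standard error of the log2 fold change, namely its absolute value divided by the square root of the quasi-likelihood F statistic. Gene positions, overlaps, lengths and neighbours came from GENCODE 29. Values in every library are given for SREBF1, SREBF2, SCAP and INSIG1 and for the 4 largest called rises and falls of each comparison at 1 CPM or more; other members are named with means or fold changes, and of each other list the largest called rise and fall. A gene that this rule would name is not reported here. Members and lists were chosen with earlier results of these data known. Alternatives were size factors by RLE, library totals alone, no filter, DESeq2 1.42.0, a coefficient of variation of 0.1, a replicate block, and leaving out each library.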

Additional observations from a re-analysis of the deposited data

Results flagged for a closer look

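For HMGCS1 and ABCA1 the neratinib response differed between the genotypes by at least 1.5-fold in edgeR's interaction test. HMGCS1 responded more positively in KO-labelled cells, by 0.74 (log2, SE 0.027, Benjamini-Hochberg adjusted p = 9.35e-26), and was higher after neratinib in 3 of 3 KO-labelled libraries and lower in 3 of 3 parental libraries than in any DMSO library of the same cells. ABCA1 responded less positively, by -1.17 (log2, SE 0.304, edgeR adjusted p = 0.00139), and was higher after neratinib in all 3 libraries of both kinds of cell. Groups of 3 libraries were too small to test single libraries as outliers.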

How the results depend on the processing

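No called member changed direction under any alternative, and 19 of 3330 member values changed sign while called in neither fit. When every gene was given a coefficient of variation of 0.1, members called higher and lower in KO-labelled cells went to 6 and 9 in DMSO and to 8 and 10 in neratinib. Those called with neratinib in KO-labelled cells went to 9 and 13, and those of the interaction to 2 and 1. In all, 73 calls were lost among 185 member values, some of which had no call to lose. The interaction alone lost 23 calls and kept 3. This setting assumes more spread than the libraries showed. Leaving out each library in turn moved the count at least 1.5-fold higher in DMSO between genotypes over 3 to 5, and over all such fits 43 of 2220 values lost and 15 gained a call. Size factors by RLE lost 6 and gained 2 calls, library totals alone 8 and 8, no filter 3 and 4, and DESeq2 5 and 1. Library totals alone put the median of all genes at 0.12 (log2) for neratinib in parental cells, beside 0.04. The replicate block changed no call and left 10 members higher and 19 lower in DMSO; the numbers did not pair the libraries, with correlations of same-numbered deviations from -0.0466 to 0.0396 over 18 pairs, and 4 of 12 libraries correlated best with their own number. Depth limits SOAT2 and ABCA1, with 4 to 172 and 38 to 587 counts per group.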
